A study of Homo sapiens with 9 samples.

Results

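The ISG15 conjugation pathway was followed through the 6 genes of its core machinery, picked by name: ISG15, UBA7, UBE2L6, HERC5, HERC6 and USP18. All 6 were found under these names in both deposited tables, as 6 of 36119 loci in the knockout table and 6 of 35856 in the treatment table. ISG15 is a ubiquitin-like protein that is attached to other proteins after interferon exposure. UBA7 (also UBE1L) is the activating enzyme that charges it, UBE2L6 the conjugating enzyme that carries it, and HERC5 the main human ligase that transfers it to targets. HERC6 is the nearest relative of HERC5 and serves as the ligase in mice. USP18 removes ISG15 from its targets and also dampens signalling at the type I interferon receptor. Promoters of such genes are typically bound by a complex that holds STAT2 and IRF9 at an interferon-stimulated response element (ISRE). UBA7 is also known as a gene that retinoic acid induces in promyelocytic leukaemia cells.

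All libraries came from NB4, an established human line of acute promyelocytic leukaemia that carries the PML-RARA fusion. For the treatment table cells were exposed for 24 h, and a single library was made per condition: MC_2580 plus retinoic acid (RA) at 0.01 uM (the combination), MC_2580, an LSD1 inhibitor whose dose the labels do not give, DMSO as vehicle, RA at 0.01 uM, and RA at 1 uM. The other table holds 2 libraries of untreated LSD1 KO cells and 2 of untreated WT cells. Both KO libraries carry 1 common sample name in the table apart from the replicate number, and the labels state neither the number of clones nor that replicates were separate cultures. A p-value here therefore covers the spread among the 4 libraries and nothing beyond it, which may be technical. Values are FPKM, which are scaled to transcript length.

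In both tables the NB4 label was checked against 6 promyelocyte markers, of which 5 reached 1 FPKM in each library and MPO stood at 2454 to 6518 FPKM; ELANE lay at or below 0.242 FPKM. The 4 erythroid markers summed to at most 0.0397 FPKM and the 4 fibroblast markers to at most 0.169 FPKM, other than 1.82 FPKM at RA 1 uM. Among 5 lymphoid markers CD3D (56.1 to 213 FPKM) and NKG7 (21.9 to 91.0 FPKM) were present in these cells while CD3E and MS4A1 stayed below 1 FPKM. NKG7 had 91.0 FPKM with the combination and 30.2 FPKM with MC_2580, and 21.9 FPKM in DMSO, 54.5 FPKM at RA 0.01 uM and 60.8 FPKM at RA 1 uM. The part of this in the treatment results was not tested. The 5 markers of plasmacytoid dendritic cells, a cell known for making interferon, summed to 1.28 to 2.91 FPKM, and its defining CLEC4C and LILRA4 did not exceed 0.419 FPKM. KDM1A encodes LSD1 and is listed as AOF2; it had 14.0 and 16.8 FPKM in KO cells against 49.8 and 66.6 FPKM in WT cells (log2 difference -1.84, SE 0.23, limma adjusted p = 0.158). From the spacing of low values, 1 FPKM stood for 0.73 to 0.90 times as many reads in the treated libraries as in DMSO, and in the knockout table for 1.04 (KO 1), 1.35 (KO 2) and 1.66 (WT 2) times as many as in WT 1.

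Promoter sequence, from 250 bases before to 50 bases after the start, was in the RefSeq table (GRCh38.p14) for 4 of the 6 genes, in 5 windows. The ISRE core was searched on both strands as GAAANNGAAA, and 3.57% of 35116 promoters of that length held it. Matches were found in the windows of ISG15 and HERC5, and none in that of HERC6 or in either of the windows of UBE2L6. The ISG15 and HERC5 windows are printed because they hold the core. These genes stood on opposite sides of DMSO under RA, and any part of the core in this was not tested. Capitals mark the matches. The ISG15 window is chr1:1013247-1013546 on the plus strand and that of HERC5 is chr4:88456869-88457168 on the plus strand.
ISG15: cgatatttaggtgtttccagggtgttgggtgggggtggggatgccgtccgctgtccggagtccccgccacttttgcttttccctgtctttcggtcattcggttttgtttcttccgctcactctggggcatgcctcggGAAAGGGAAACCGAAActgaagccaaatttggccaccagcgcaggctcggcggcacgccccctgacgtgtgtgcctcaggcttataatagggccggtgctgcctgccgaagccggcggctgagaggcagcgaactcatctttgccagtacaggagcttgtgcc
HERC5: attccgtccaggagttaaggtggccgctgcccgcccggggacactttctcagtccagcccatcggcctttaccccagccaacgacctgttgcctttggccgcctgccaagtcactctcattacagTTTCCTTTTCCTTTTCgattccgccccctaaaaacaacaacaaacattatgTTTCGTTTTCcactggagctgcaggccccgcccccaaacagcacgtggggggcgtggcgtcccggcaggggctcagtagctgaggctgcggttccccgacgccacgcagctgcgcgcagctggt
ISG15 held 2 matches that overlap, starting 113 and 107 bases before the start. HERC5 held 3 on the other strand, starting 125, 119 and 74 bases before it, of which the first pair overlaps. The STAT dimer core TTCNNNGAA (7.66% of promoters) and the retinoic acid receptor half-site AGGTCA (13.8%) were found in none of the 5 windows. A match describes letters in the window only.

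**Figure D1:**
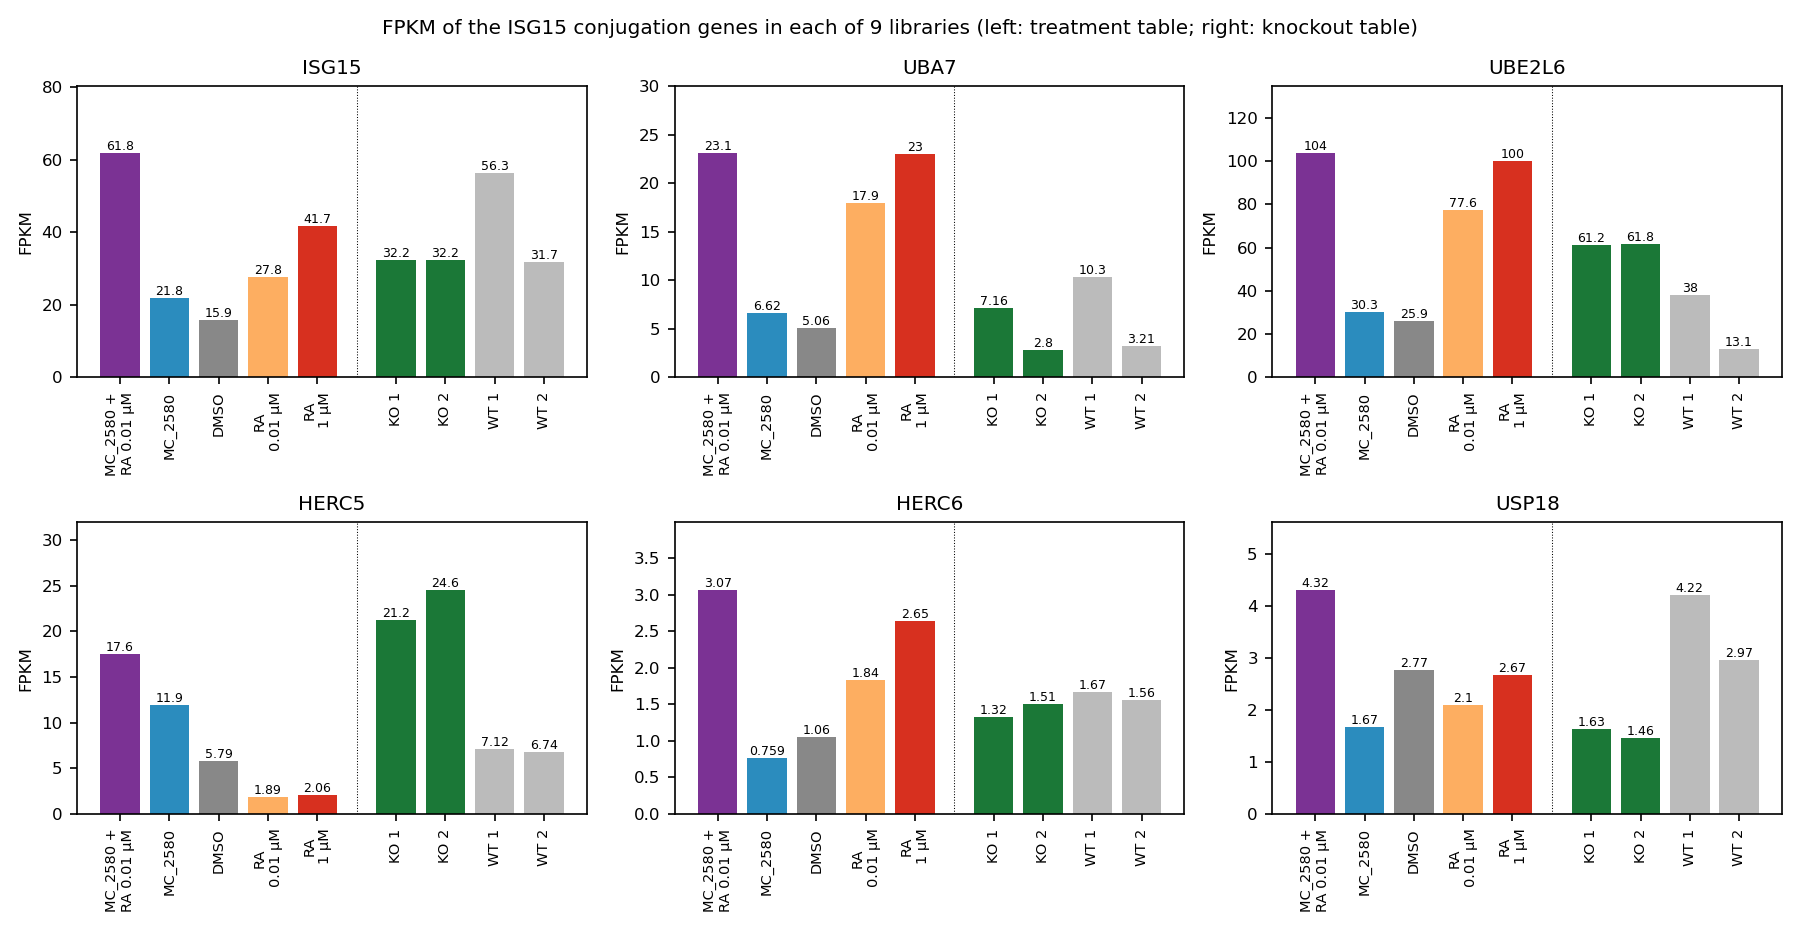
FPKM (linear axis from 0, a separate scale for each gene) of the 6 genes in 9 libraries, 1 bar per library with its value above; the 5 treatment libraries are left of the dotted line and the KO and WT libraries right of it. UBA7 and UBE2L6 stand higher with RA than in DMSO, while HERC5 stands at 1.89 and 2.06 FPKM with RA and at 17.6 FPKM with the combination.

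Retinoic acid alone was set against DMSO to see how the pathway stands in the RA-treated state. The activating and conjugating enzyme genes UBA7 and UBE2L6 stood at least 2-fold higher at both doses and ISG15 at the higher dose, whereas the ligase gene HERC5 stood at least 2-fold lower at both. At RA 0.01 uM 2 of 6 genes were at least 2-fold higher and 1 at least 2-fold lower than in DMSO, where 5.42% of 13594 loci were higher and 3.99% lower. At RA 1 uM 3 were higher and 1 lower, where 6.63% of 13630 loci were higher and 4.09% lower. Among protein-coding genes with 1 locus the shares were 4.87% and 2.78% at the low dose and 6.5% and 2.7% at the high dose. Each condition had 1 library, so no replicate checks these differences and none has a p-value. In bulk RNA a larger share of cells with a transcript and more transcript per cell cannot be told apart.

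ISG15 (chromosome 1, 938742 to 939782, hg18) stood at 15.9 FPKM in DMSO, 27.8 FPKM at RA 0.01 uM and 41.7 FPKM at RA 1 uM. Its log2 difference from DMSO was 0.77 at the low dose and 1.34 at the high dose, and 2-fold was passed at the high dose alone. WT 1 and WT 2 differed in ISG15 by 0.81, which is more than the difference at the low dose. The WT and KO libraries, used here and below as a measure of spread, are untreated and lie outside the treatment series. Whether treatment libraries would vary by as much was not tested. UBA7 (chromosome 3, 49817643 to 49826395) stood at 5.06 FPKM in DMSO, 17.9 FPKM at RA 0.01 uM and 23.0 FPKM at RA 1 uM, log2 differences from DMSO of 1.64 and 1.98. UBE2L6 (chromosome 11, 57075705 to 57103217) followed with 25.9 FPKM in DMSO, 77.6 FPKM at RA 0.01 uM and 100.3 FPKM at RA 1 uM, log2 differences of 1.55 and 1.91. For both enzymes most of the difference was already present at the lower dose. The authors' deposited table calls UBA7 and UBE2L6 at both RA doses against DMSO and does not call ISG15 at either.

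The rule also marked members where libraries of 1 group were compared, 1 of 6 for KO 1 against KO 2 and 2 of 6 for WT 1 against WT 2. UBA7 differed by a log2 value of 1.10 for KO 1 against KO 2 and 1.43 for WT 1 against WT 2, and UBE2L6 by -0.01 and 1.47. The differences of both genes from DMSO were larger than these at either RA dose, by a narrow margin for UBE2L6 at 0.01 uM. Over all loci the rule marked 5.37% higher and 3.22% lower for KO 1 against KO 2, and 4.99% higher and 4.07% lower for WT 1 against WT 2.

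HERC5 (chromosome 4, 89597291 to 89646334) went the other way, at 5.79 FPKM in DMSO, 1.89 FPKM at RA 0.01 uM and 2.06 FPKM at RA 1 uM. Its log2 differences from DMSO were -1.23 and -1.15, beside -0.20 for KO 1 against KO 2 and 0.07 for WT 1 against WT 2. HERC5 is called at neither RA dose against DMSO in the authors' deposited table. HERC6, whose locus ends 14019 bases before that of HERC5 (chromosome 4, 89518915 to 89583271), had 1.06 FPKM in DMSO, 1.84 FPKM at RA 0.01 uM and 2.65 FPKM at RA 1 uM, log2 differences of 0.46 and 0.83 from DMSO. At such low levels the added 1 FPKM holds the second of these under 2-fold, and with 0.1 or 0.5 FPKM added it was 1.25 or 1.02. These neighbouring genes therefore stood on opposite sides of DMSO under RA. USP18 (chromosome 22, 17012758 to 17040164) had 2.77 FPKM in DMSO, 2.10 FPKM at RA 0.01 uM and 2.67 FPKM at RA 1 uM, log2 differences of -0.28 and -0.04. Both were smaller than the 0.40 by which WT 1 and WT 2 differed in USP18, so no direction is given for it.

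RA 1 uM against RA 0.01 uM moved no gene of the set by 2-fold (0 of 6 in either direction, against 1.93% of 13342 loci higher and 1.68% lower). All 6 values were higher at the high dose, ISG15 by a log2 value of 0.57, HERC6 by 0.36, UBE2L6 by 0.37, UBA7 by 0.34, USP18 by 0.24 and HERC5 by 0.09. Each was smaller than 0.72, the root mean square difference between libraries of 1 group pooled over the members, so no dose response is read from them. HERC6 alone exceeded its own differences between such libraries, 0.06 for WT 1 against WT 2 and -0.11 for KO 1 against KO 2. The median of the 6 was 0.35 and that of all loci was 0.03.

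**Figure D2:**
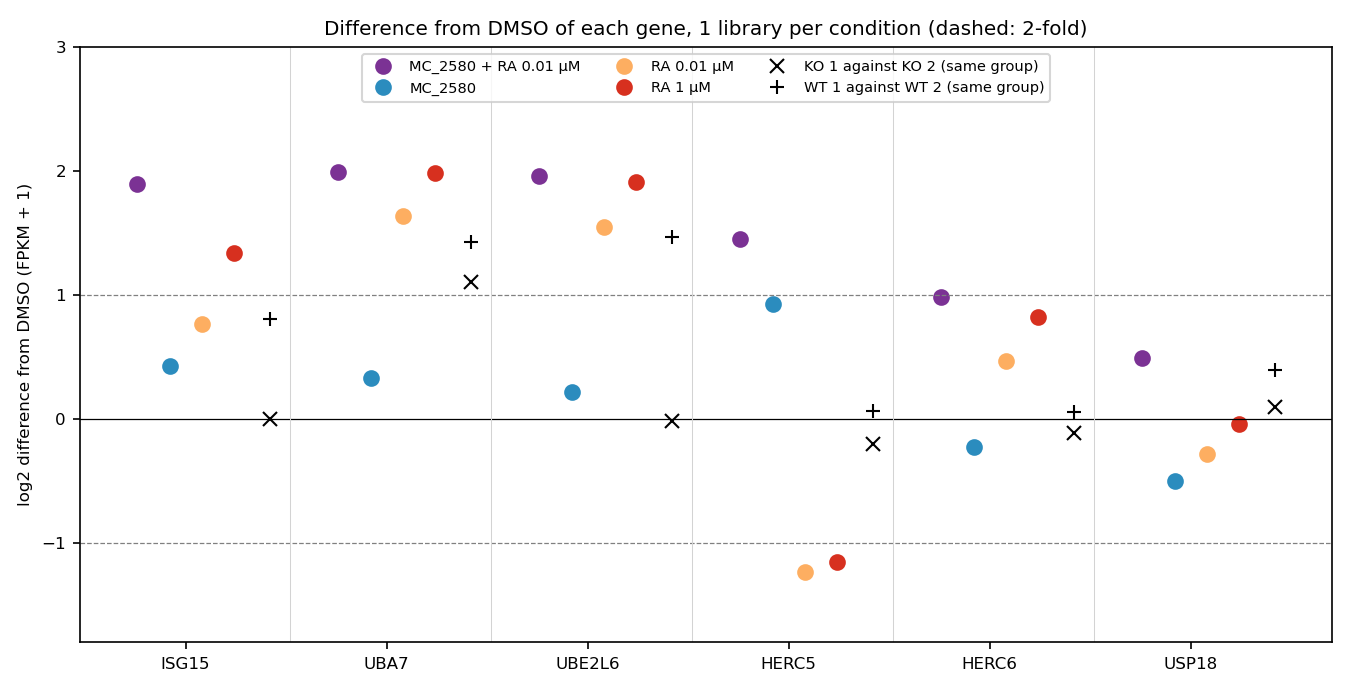
Log2 difference from DMSO on the FPKM + 1 scale for each gene, 1 point per treated library, with crosses for the difference between 2 libraries of the same KO or WT group; dashed lines mark 2-fold. HERC5 is at -1.23 and -1.15 with RA alone and at 1.45 with the combination, while UBA7 and UBE2L6 lie between 1.55 and 1.99 whenever RA was present.

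MC_2580 alone was compared with DMSO to ask what the inhibitor does without RA. None of the 6 genes passed 2-fold (0 higher and 0 lower, against 2.22% of 13449 loci higher and 1.73% lower). HERC5 came nearest, with 11.9 FPKM in MC_2580 against 5.79 FPKM in DMSO, a log2 difference of 0.93, which became 1.03 and so passed 2-fold with 0.1 FPKM added in place of 1. ISG15 had 21.8 FPKM in MC_2580 against 15.9 FPKM in DMSO, and UBE2L6 30.3 FPKM against 25.9 FPKM. UBA7 had 6.62 FPKM in MC_2580 against 5.06 FPKM in DMSO. These 3 differences, at log2 values of 0.43, 0.22 and 0.33, were smaller than those between the WT libraries. USP18 had 1.67 FPKM in MC_2580 against 2.77 FPKM in DMSO and HERC6 had 0.759 against 1.06 FPKM, log2 differences of -0.50 and -0.23. For USP18, HERC6 and HERC5 the differences were larger in size than those between libraries of 1 group. Those were 0.40, 0.06 and 0.07 for WT 1 against WT 2, and 0.09, -0.11 and -0.20 for KO 1 against KO 2. The authors' deposited table calls none of the 6 in this comparison.

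With the combination all 6 genes stood above DMSO. Of 6 genes 4 were at least 2-fold higher and 0 lower, against 9.05% of 13841 loci higher and 4.64% lower; for protein-coding genes with 1 locus the share higher was 9.36%. ISG15 had 61.8 FPKM with the combination against 15.9 FPKM in DMSO, a log2 difference of 1.89. UBE2L6 had 103.6 FPKM against 25.9 FPKM in DMSO, and UBA7 23.1 FPKM against 5.06 FPKM, log2 differences of 1.96 and 1.99. HERC5 had 17.6 FPKM with the combination against 5.79 FPKM in DMSO, a log2 difference of 1.45. HERC6, at 3.07 FPKM with the combination against 1.06 FPKM in DMSO, missed 2-fold by little (0.98) and passed it with 0.1 or 0.5 FPKM added (1.45 and 1.20) or after rescaling (1.00), and USP18 had 4.32 FPKM against 2.77 FPKM (0.49). The authors' deposited table calls ISG15, UBA7 and UBE2L6 here.

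Adding MC_2580 to RA 0.01 uM separated the genes. Of 6 genes 2 were at least 2-fold higher with the combination than with RA 0.01 uM, and 0 lower, against 5.06% of 13627 loci higher and 1.92% lower. HERC5 had 17.6 FPKM with the combination against 1.89 FPKM with RA 0.01 uM, the largest difference of the set (log2 2.69). ISG15 followed with 61.8 FPKM against 27.8 FPKM (1.13). The 2 enzymes upstream of the ligase differed little, UBA7 at 23.1 FPKM with the combination against 17.9 FPKM with RA 0.01 uM (0.35) and UBE2L6 at 103.6 FPKM against 77.6 FPKM (0.41). HERC6 and USP18 lay in between, at 0.52 and 0.78. HERC5 alone of the 6 is called in the authors' deposited table for this pair.

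Adding RA 0.01 uM to MC_2580 gave a different order. Against MC_2580, 4 genes were at least 2-fold higher with the combination and 0 lower (7.8% of 13800 loci higher, 4.54% lower). These were UBE2L6 (log2 1.74), UBA7 (1.66), ISG15 (1.46) and HERC6 (1.21). USP18 had 4.32 FPKM with the combination against 1.67 FPKM in MC_2580 (0.99, and 1.15 to 1.32 with a smaller pseudocount), and HERC5 17.6 FPKM against 11.9 FPKM (0.53). In the presence of the inhibitor HERC5 was therefore not lower with RA than without it.

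Set against the higher RA dose, the combination gave nearly equal values for the activating and conjugating enzymes and a different one for the ligase. UBA7 had 23.1 FPKM with the combination against 23.0 FPKM with RA 1 uM (log2 0.01), and UBE2L6 103.6 FPKM against 100.3 FPKM (0.05). HERC5 had 17.6 FPKM with the combination against 2.06 FPKM with RA 1 uM, a log2 difference of 2.60, and was the 1 gene of the 6 past 2-fold (4.07% of 13580 loci higher, 1.84% lower). ISG15 and USP18 were higher with the combination by 0.55 and 0.54, and HERC6 by 0.16. The combination and the higher RA dose differ in agent as well as in RA dose.

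**Figure D3:**
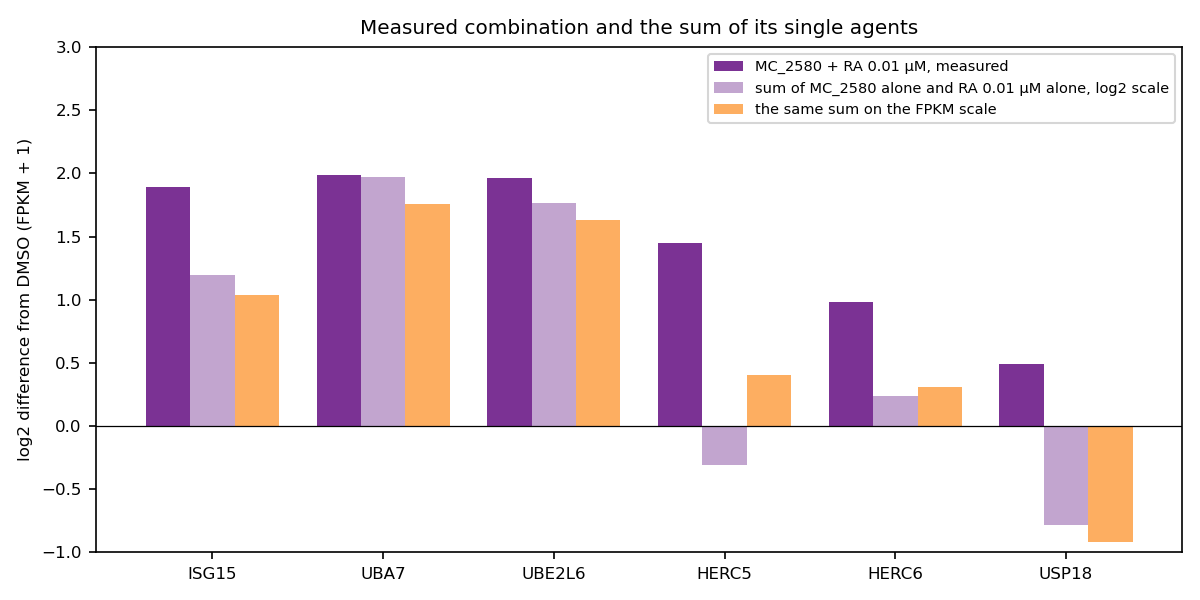
Log2 difference from DMSO (FPKM + 1) of each gene with the combination, beside the sum of the differences of MC_2580 alone and RA 0.01 uM alone, added on the log2 scale or as FPKM; 1 library per condition. The measured bar and the log2 sum nearly match for UBA7 (1.99 and 1.97), and for HERC5 (1.45 measured) the sum is -0.31 on the log2 scale and 0.41 on the FPKM scale.

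The combination was also set against the sum of its single agents on the log2 scale. HERC5 exceeded the sum by 1.76 and USP18 by 1.28, so 2 of 6 genes lay at least 2-fold above the sum and 0 below it, against 4.52% of 14045 loci above and 2.73% below. When FPKM differences were added instead, the excess was 1.05 for HERC5 and 1.41 for USP18, and the summed difference of HERC5 from DMSO was 0.41 in place of -0.31. The size of the HERC5 excess thus rests on the scale, and both genes remained past 2-fold on either. HERC6 and ISG15 exceeded the log2 sum by 0.74 and 0.70. UBE2L6 and UBA7 lay 0.19 and 0.02 above it, and the median of all loci was 0.03. All these deviations share the single DMSO, MC_2580 and RA 0.01 uM libraries, and at 1.67 to 4.32 FPKM the USP18 value rests on low expression. For USP18 the combination stood 0.49 above DMSO and the log2 sum was -0.78, so much of its excess comes from the single agents. The authors' deposited table calls USP18 in none of its comparisons.

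USP18 has a close copy, USP41, whose reads the counting may have split, so both genes are uncertain. USP41 had 2.49 FPKM with the combination and 0.781 FPKM in MC_2580. Along the RA series it had 1.91 FPKM in DMSO, 1.15 FPKM at RA 0.01 uM and 1.15 FPKM at RA 1 uM, which is the order USP18 took, apart from the RA doses. In the knockout table it stayed at or below 0.124 FPKM in each library.

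Loss of LSD1 was examined in untreated cells. By limma none of the 6 genes passed an adjusted p of 0.05 over all loci, where 0.114% of 13157 loci (15 loci) passed; 2 of the 6, HERC5 and USP18, had an unadjusted p under 0.05, as had 7.16% of all loci. HERC5 stood at 21.2 and 24.6 FPKM in KO cells against 7.12 and 6.74 FPKM in WT cells, with no overlap between the groups. With 2 libraries against 2, the smallest p that an exact test of the group labels could give is 0.333. A lack of overlap, here or below, is therefore weak evidence, and the share of all loci without overlap was not counted. The log2 difference of HERC5 was 1.59 (SE 0.16, limma adjusted p = 0.115), and it lay between 1.49 and 1.69 with any 1 of the 4 libraries left out. When limma was run on protein-coding genes with 1 locus alone the adjusted p for HERC5 was 0.0517, the lowest over all alternatives, and the highest was 0.521 without KO 2. Lymphoid markers also stood higher in KO, summing to 276.4 and 210.3 FPKM in KO cells against 162.9 and 97.0 FPKM in WT cells, most of it CD3D, and their part in the result was not tested.

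UBE2L6 stood at 61.2 and 61.8 FPKM in KO cells against 38.0 and 13.1 FPKM in WT cells. Both KO values lay above both WT values, but the WT libraries differed from each other (log2 1.47) by more than KO from WT (log2 difference 1.41, SE 0.55, limma adjusted p = 0.750). The difference was 2.15 without WT 1 and 0.68 without WT 2. USP18 lay lower, at 1.63 and 1.46 FPKM in KO cells against 4.22 and 2.97 FPKM in WT cells, also without overlap (-0.84, SE 0.24, limma adjusted p = 0.591). The authors' deposited table calls UBE2L6 and HERC5 for replicate 2 and none of the 6 for replicate 1.

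The other 3 members had limma adjusted p values of 0.850 or more. ISG15 had 32.2 and 32.2 FPKM in KO cells against 56.3 and 31.7 FPKM in WT cells (log2 difference -0.38, SE 0.33, limma adjusted p = 0.850), and its sign rested on WT 1, without which the difference was 0.02. UBA7 had 7.16 and 2.80 FPKM in KO cells against 10.3 and 3.21 FPKM in WT cells (-0.31, SE 0.67), and replicate 1 stood above replicate 2 in both groups. The labels do not say what a replicate number marks. HERC6 had 1.32 and 1.51 FPKM in KO cells against 1.67 and 1.56 FPKM in WT cells (-0.12, SE 0.22); the KO values lay below the WT values without overlap, by less than the SE. The median of the 6 genes was -0.21, against -0.02 for all loci tested, and it was -0.47 without WT 2 but 0.21 without WT 1 and 0.03 without KO 2. Other interferon-stimulated genes moved with the libraries as well, with a median of 0.30 for KO 1 against KO 2 and 0.86 for WT 1 against WT 2. The part of that difference in the values above was not tested.

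**Figure D4:**
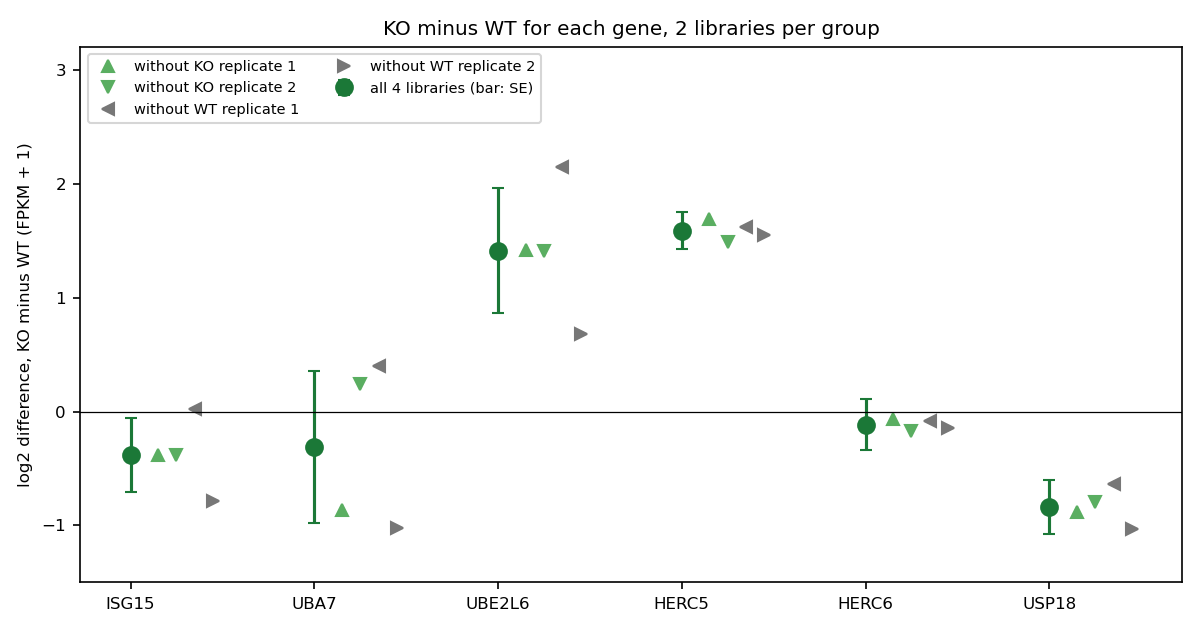
Log2 difference KO minus WT (FPKM + 1) of each gene with all 4 libraries (circle, bar 1 SE from limma) and with each library left out in turn (triangles). HERC5 stays between 1.49 and 1.69, UBE2L6 ranges between 0.68 and 2.15, and ISG15 and UBA7 cross 0.

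By level, FPKM being per transcript length, UBE2L6 and ISG15 were the most abundant of the 6 in every library. The least abundant was HERC5 at RA 1 uM and HERC6 or USP18 in the other libraries. With the combination the order ran UBE2L6, ISG15, UBA7, HERC5, USP18 and HERC6. In DMSO HERC5 (5.79 FPKM) stood just above UBA7 (5.06 FPKM), while with RA alone HERC5 stood beside USP18 and HERC6, all between 1.84 and 2.67 FPKM. UBE2L6 made up 48.6% of the summed FPKM of the 6 genes with the combination, 41.5% with MC_2580, 45.8% in DMSO, 60.1% at RA 0.01 uM and 58.2% at RA 1 uM. HERC5 made up 8.23% with the combination and 16.3% with MC_2580, and 10.3% in DMSO, 1.46% at RA 0.01 uM and 1.20% at RA 1 uM. In KO cells UBE2L6 lay above ISG15, whereas in WT cells the ranges of both overlapped. UBA7 overlapped HERC5 and USP18 in WT cells, and USP18 overlapped HERC6 in KO cells.

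Profiles over the 5 treatment libraries were compared as log2 values centred on each gene's mean. UBA7 and UBE2L6 were nearest to each other, with a root mean square difference of 0.04 log2 units. ISG15 lay 0.38 and 0.37 from them and 0.31 from HERC6, and HERC6 lay 0.31 from USP18. HERC5 was far from all, between 1.01 (USP18) and 1.53 (UBA7). Among 7480 other protein-coding genes, those nearest to UBA7 were ERAP2 (LRAP in the table, 0.06), an aminopeptidase that trims antigenic peptides, SPI1 (0.07), the myeloid transcription factor PU.1, and TCIRG1 (0.08), a proton pump subunit. ERAP2 and SPI1 were also the nearest to UBE2L6 (0.07 and 0.10), followed by TPP1 (0.10), a lysosomal peptidase. SPI1 had 259.2 FPKM with the combination and 92.6 FPKM with MC_2580, and 70.5 FPKM in DMSO, 224.1 FPKM at RA 0.01 uM and 262.5 FPKM at RA 1 uM.

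Nearest to ISG15 were PHF11 (0.09) and the cytosolic RNA sensors IFIH1 (0.11) and RIGI (DDX58 in the table, 0.12). Nearest to HERC5 were OSBPL11, an oxysterol-binding protein (0.13), P2RX7, an ATP-gated channel (0.18), and ASGR2, an asialoglycoprotein receptor chain (0.20). OSBPL11 had 16.6 FPKM with the combination and 11.1 FPKM with MC_2580, and 4.93 FPKM in DMSO, 1.23 FPKM at RA 0.01 uM and 2.07 FPKM at RA 1 uM. MCL1, LMBRD1 and TMEM87B were nearest to HERC6 (0.07 to 0.08), and CCPG1, GMFB and N4BP1 to USP18 (0.13 each). To the mean profile of the 6 genes the nearest were NAGK, MAP3K3, CR1, KRCC1, MTMR14, CACNA2D4, PAK1, GIMAP2, BTN2A1 and DOCK8 (0.04 to 0.09). With 5 libraries these distances describe the profiles only.

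Of 9 other genes whose proteins are known to act on ISG15, 8 had a value in all 5 treatment libraries, and 0 of these passed 2-fold against DMSO with the combination, MC_2580 or either RA dose. Over all loci at most 9.05% were at least 2-fold higher and at most 4.64% lower in these comparisons. The ninth, ITGAL, a chain of the LFA-1 integrin that binds secreted ISG15, has no usable MC_2580 value and had 10.8 FPKM with the combination against 1.88 FPKM in DMSO (log2 difference 2.04). USP13 came nearest to 2-fold lower, at -0.80 with RA 0.01 uM and -0.88 with RA 1 uM, while KO 1 and KO 2 differed in it by -1.02. USP41 lay 1.40 above the sum of the single agents. TRIM25, which can act as an ISG15 ligase, had 35.6 FPKM with the combination and 21.5 FPKM with MC_2580, and 19.2 FPKM in DMSO, 25.3 FPKM at RA 0.01 uM and 30.8 FPKM at RA 1 uM. ARIH1, another reported ligase, lay between 23.0 and 27.4 FPKM in these 5 libraries. Of proteases reported to react with ISG15, USP5 lay at 25.0 to 35.3 FPKM, USP14 at 28.3 to 38.6 FPKM, USP21 at 11.5 to 14.3 FPKM, USP13 at 3.02 to 7.17 FPKM and USP2 below 1 FPKM.

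The 9 relatives in the ubiquitin system stayed within 2-fold in all 4 comparisons with DMSO, where at most 9.05% of loci were higher and 4.64% lower. UBE2L3, the closest relative of UBE2L6, had 36.0 FPKM with the combination and 36.7 FPKM with MC_2580, and 39.0 FPKM in DMSO, 38.0 FPKM at RA 0.01 uM and 41.2 FPKM at RA 1 uM. UBA1, the main activating enzyme of ubiquitin, lay between 121.9 and 136.3 FPKM and UBA6 between 9.48 and 11.6 FPKM. HERC3, a neighbour in the family, had 9.21 FPKM with the combination and 5.20 FPKM with MC_2580, and 6.23 FPKM in DMSO, 8.56 FPKM at RA 0.01 uM and 9.81 FPKM at RA 1 uM. HERC1, HERC2 and HERC4 ranged over 5.35 to 9.06, 12.1 to 14.6 and 12.2 to 14.9 FPKM, and the polyubiquitin gene UBB over 947.8 to 1062 FPKM. In KO against WT cells 0 of these 9 and 0 of the 7 tested ISG15 partners passed in limma. With 0.114% of 13157 loci passing, these counts say little about the 2 lists.

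Interferon genes themselves were barely present. None of the 19 found in the tables reached 1 FPKM in any of the 9 libraries, and the highest, IFNA1, was at 0.615 FPKM. Receptor and signalling genes stood higher along the RA series. Of 15 listed, 9 were at least 2-fold higher than in DMSO with the combination, 0 with MC_2580, 4 at RA 0.01 uM and 5 at RA 1 uM, with 0 lower in each, and medians of 1.22, 0.12, 0.52 and 0.88 in that order. Of all loci of at least 1 FPKM in a library compared, 9.05%, 2.22%, 5.42% and 6.63% were higher in the same order. WT 1 against WT 2 gave the signalling genes a median of 0.30, with 1 of 12 tested at least 2-fold higher. KO 1 against KO 2 gave them 0.03, with 0 of 13. IRF1, a transcription factor that RA and interferon induce, had 162.5 FPKM with the combination and 22.6 FPKM with MC_2580, and 15.5 FPKM in DMSO, 118.7 FPKM at RA 0.01 uM and 122.8 FPKM at RA 1 uM. STAT2 had 27.1 FPKM with the combination and 12.3 FPKM with MC_2580, and 11.2 FPKM in DMSO, 12.4 FPKM at RA 0.01 uM and 17.3 FPKM at RA 1 uM.

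IRF9, the DNA-binding partner of STAT2 (ISGF3G in the table), had 19.5 FPKM with the combination and 9.67 FPKM with MC_2580, and 7.78 FPKM in DMSO, 11.6 FPKM at RA 0.01 uM and 15.2 FPKM at RA 1 uM. IRF7 had 25.7 FPKM with the combination and 7.22 FPKM with MC_2580, and 4.78 FPKM in DMSO, 7.87 FPKM at RA 0.01 uM and 13.5 FPKM at RA 1 uM. The receptor chains IFNAR1 and IFNAR2 had 18.6 and 21.5 FPKM with the combination against 11.1 and 13.1 FPKM in DMSO, and the receptor kinases JAK1 and TYK2 29.0 and 135.6 FPKM against 22.2 and 56.9 FPKM.

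Other interferon-stimulated genes were listed beside the 6. Over the 31 of 35 with a value in all 5 libraries, taken at any level, 26 were at least 2-fold higher than in DMSO with the combination (median 1.97), 0 with MC_2580 (0.17), 10 at RA 0.01 uM (0.77) and 20 at RA 1 uM (1.10), with 0 lower in each. The shares of all loci that were higher were 9.05%, 2.22%, 5.42% and 6.63%. The medians of the 6 conjugation genes were 1.67, 0.27, 0.62 and 1.08 in the same order, beside -0.02, -0.02, -0.06 and -0.04 for all loci. WT 1 against WT 2 gave 0.60 for the 6 genes (2 of 6 at least 2-fold higher). For the other interferon-stimulated genes that pair gave 0.86 (10 of 29). KO 1 against KO 2 gave -0.01 (1 of 6) and 0.30 (0 of 27). The median of the 6 genes at RA 0.01 uM was thus close to that between the WT libraries. For the other interferon-stimulated genes the WT median covers only genes of at least 1 FPKM. Under that filter their median at RA 0.01 uM was 0.92 over 27 genes, also close to the WT median. Among the other interferon-stimulated genes of at least 1 FPKM, the largest differences at RA 1 uM were in IFI6 (3.53), OAS1 (2.99) and PARP14 (2.94), and the smallest in IFIT1 (-0.14), IFITM3 (0.12) and IFITM2 (0.35). IFIT1 had 10.8 FPKM with the combination and 4.22 FPKM with MC_2580, and 3.38 FPKM in DMSO, 1.59 FPKM at RA 0.01 uM and 2.98 FPKM at RA 1 uM. Its value at RA 0.01 uM was below DMSO by less than 2-fold (log2 -0.76). IFIT1 had 14.0 FPKM in WT 1 and 6.69 FPKM in WT 2, so no direction is given for it. In KO against WT cells 0 of 29 tested genes of the list of other interferon-stimulated genes passed in limma (median -0.08), and 0 of 13 signalling genes (-0.07). Only 0.114% of 13157 loci passed, so a count of 0 says little about either list.

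**Figure D5:**
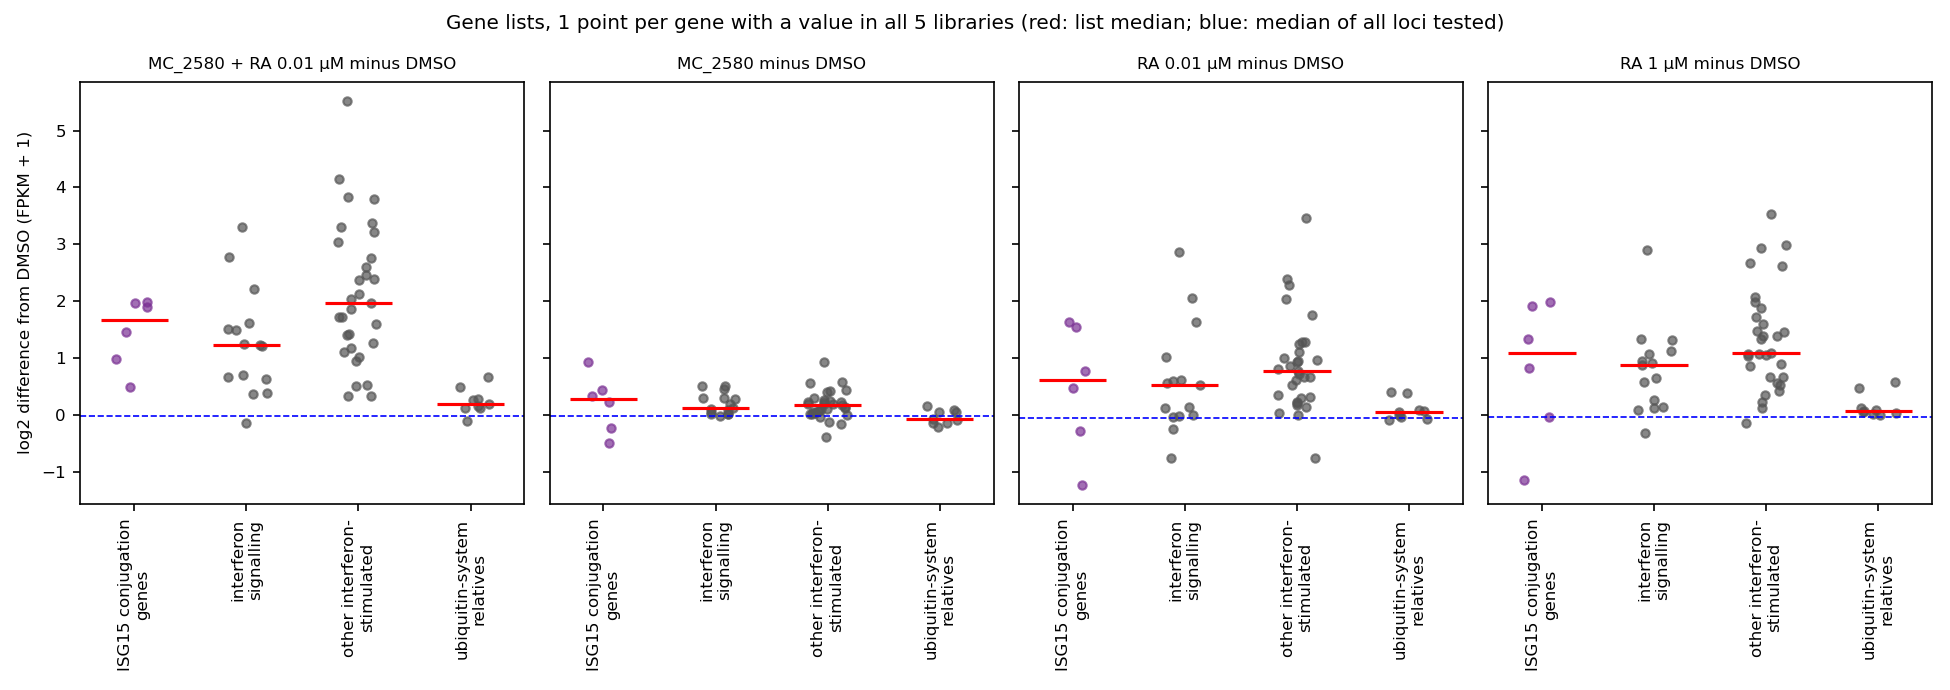
Log2 difference from DMSO (FPKM + 1) of each gene with a value in all 5 libraries in 4 lists, 1 panel per treated library; red bars are list medians and the dashed blue line the median of all loci tested. In the combination panel the 6 conjugation genes (median 1.67) lie between the signalling genes (1.22) and the other interferon-stimulated genes (1.97), and the ubiquitin-system relatives lie near 0 (0.20).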

How the data were processed

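RNA of NB4 cells was sequenced in 9 libraries made from total RNA with the TruSeq V2 kit, per the labels' protocols. Both deposited tables give FPKM (fragments scaled to transcript length and library total), as their column layout shows. Build hg18 and the tools TopHat2 2.0.10, TopHat 1.3.1, Cuffdiff, Cufflinks and CASAVA 1.8 are named in the submitters' processing notes without role or order, and nothing used here states the annotation, strandedness or scaling. For the knockout libraries 0.001 FPKM had been added to every value and was taken off. The deposited p-value columns give adjusted q-values of 1 library against another. In the treatment table the deposited q-value column is treated as a score, since it exceeds 1, and it was used only through the authors' significance calls. Treatment values with a failed status were treated as missing.

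KO and WT were compared over 13157 loci by limma's trend method (version 3.58.1, R 4.3.3), two-sided, on log2(FPKM + 1), for loci with a mean of at least 1 FPKM in 1 group, with Benjamini-Hochberg adjustment over all loci and a threshold of 0.05; the code was tested on simulated data. Gene lists were counted in the treatment table over every listed gene with a value in all 5 libraries, a choice made after seeing the data. Treatment libraries, 1 per condition, were compared by size, at 2-fold on the FPKM + 1 scale, for loci of at least 1 FPKM in 1 library compared. To set the combination against its agents, the log2 differences of MC_2580 and RA 0.01 uM from DMSO were added and taken from that of the combination. Likeness was the root mean square difference between log2(FPKM + 1) profiles, each centred on its mean over the 5 treatment libraries, among 7480 protein-coding genes of at least 5 FPKM in both tables. Promoters were searched in RefSeq sequence of GRCh38.p14. Locus starts count from 0 in the files, and 1 was added. Tables and plots were made in Python 3.11.15 (matplotlib 3.10.9, numpy 2.4.6, pandas 2.3.3).

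The members and gene lists were chosen with earlier results of these data known. Named genes are the 6 members, KDM1A, 2 short lists of ISG15 and ubiquitin genes, part of the interferon signalling list, the 3 largest and 3 smallest differences among other interferon-stimulated genes at RA 1 uM, and the nearest profiles. Of the 21 interferon genes listed 19 were in the tables. Alternatives were other pseudocounts, no filter, quantile normalization, a replicate block, protein-coding genes alone, leaving out each library, rescaling, a linear sum, a 4-fold threshold and the authors' calls. Without read totals no counting interval was computed.

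A few genes of the lists are not reported here by name; the list counts and medians include them.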

Additional observations from a re-analysis of the deposited data

How the results depend on the processing

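No member passed an adjusted p of 0.05 for KO against WT under any alternative run. The count of all loci that passed was 38 and 35 with pseudocounts of 0.1 and 0.5 FPKM, 59 among protein-coding genes with 1 locus, 0 with no filter and 0 in each of the 4 fits without 1 library, against 15. For members the sign turned for UBA7 (0.24 without KO 2, 0.40 without WT 1, within -1.02 to 0.40 over the 4 fits) and for ISG15 (0.0205 without WT 1, within -0.79 to 0.0205). With the replicate number as a block (replicate block) 0 loci passed; across 13157 loci the differences between replicates 1 and 2 correlated between KO and WT at r = 0.21, and the labels do not say that a number pairs samples.

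Counts of members past 2-fold changed as follows. A pseudocount of 0.1 FPKM gave 1 (HERC5) in place of 0 for MC_2580 against DMSO. At 4-fold no member passed against DMSO (0 for each RA dose and 0 with the combination). The combination at 4-fold had 1 member against RA 0.01 uM, 0 against MC_2580 and 0 against the sum. By the authors' calls RA 1 uM had 2 against DMSO, and 1 was called between the combination and RA 0.01 uM. Smaller pseudocounts also added members near 2-fold: HERC6 made 5 in place of 4 for the combination against DMSO (also after rescaling) and 5 in place of 4 for RA 1 uM against DMSO, USP18 made 5 in place of 4 for the combination against MC_2580 (also after rescaling) and, at 0.1 FPKM, 3 in place of 2 against RA 0.01 uM, and HERC6, at 0.1 FPKM, 3 in place of 2 against the sum. No member past 2-fold changed sign; UBA7 against the sum, at 0.02, was -0.02 after rescaling and -0.02 with a pseudocount of 0.1 FPKM. The median of the 6 genes moved by less than the 0.43 found between libraries of 1 group under the pseudocounts, rescaling and the linear sum, but on the linear scale the HERC5 excess over the sum was 1.05 in place of 1.76. Counting only listed genes of at least 1 FPKM in 1 library compared, a choice made after seeing the data, gave 27 in place of 26 other interferon-stimulated genes for the combination against DMSO. Depth limits HERC6 and USP18 most, since their values lie below 5 FPKM throughout.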

Other observations

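SOCS1 and SOCS3, which like USP18 restrain cytokine receptor signalling, stood differently along the RA series. SOCS1 had 11.5 FPKM with the combination and 1.22 FPKM with MC_2580, and 0.808 FPKM in DMSO, 6.49 FPKM at RA 0.01 uM and 2.80 FPKM at RA 1 uM, so the low dose lay above the high dose. SOCS3 had 2.29 FPKM with the combination and 0.217 FPKM with MC_2580, and 0.0687 FPKM in DMSO, 2.30 FPKM at RA 0.01 uM and 1.68 FPKM at RA 1 uM. Each value is 1 library. UBE2L3 stood at 69.6 and 115.5 FPKM in KO cells against 76.0 and 119.4 FPKM in WT cells, so that in both groups replicate 2 was the higher, as UBA1 also was (72.4 and 124.9 FPKM in KO cells against 71.2 and 120.0 FPKM in WT cells).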
